A study of Mus musculus with 12 samples.

Results

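The Obox genes encode homeodomain proteins of the paired-like class, found in oocytes and cleavage embryos, and lie in a tandem array on mouse chromosome 7. The 5 genes described here, Obox1, Obox2, Obox3, Obox5 and Obox6, were chosen by name from the annotation of GRCm38.p6, and all 5 were found there, among 20144 protein-coding genes that could be placed on the lamina maps of the autosomes. Obox proteins take part in zygotic genome activation, the first transcription from the embryo's own genome. Obox1, Obox2 and Obox5 transcripts are deposited mainly by the oocyte, whereas Obox3 and Obox6 are transcribed in the embryo. The array is thought to have arisen by duplication from Crx, an eye homeobox gene that still borders it. Chromatin at the nuclear lamina is generally little transcribed, and domains that touch it, the lamina-associated domains or LADs, are being rebuilt during the cleavage stages.

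LADs were mapped by DamID, in which the bacterial methylase Dam fused to lamin B1 methylates adenine in GATC sites of nearby chromatin. All embryos were of the genotype (C57BL/6J xCBA) x DBA/2J and formed 4 groups with 3 replicates each, siControl and siRif1 at the 4-cell stage and the same pair at the 8-cell stage. Zygotes had received 20 µM control siRNA or an siRNA directed at Rif1, which helps set the timing of DNA replication, at 17 to 18 h after hCG. Every group, controls included, also received mRNA at 46 to 48 h, namely 250 ng/µL of Tir1, which targets tagged proteins when auxin is present, 20 ng/µL of the auxin-degradable Dam-LaminB1 fusion and 100 ng/µL of membrane eGFP, and 500 µM auxin until 54 h (4-cell) or 66 h (8-cell). Collection was at 60 to 62 h for 4-cell and at 72 to 74 h for 8-cell embryos, with 16 to 24 blastomeres per replicate, taken from 4 to 6 embryos of the 4-cell stage or 2 to 3 of the 8-cell stage. The authors deposited 1 LAD list per group, made from its 3 replicates, on a grid of 100 kb. Replicate error and read depth are therefore unknown, no difference between groups could be tested, and the knockdown cannot be checked from these lists.

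A single Obox gene of the 5, Obox2, lay in a LAD in any list. Obox2 was in a LAD in siControl 8-cell and siRif1 8-cell embryos and outside LADs in both 4-cell lists. Obox1, Obox3, Obox5 and Obox6 were outside LADs in all 4 lists. By the gene's midpoint, 0 of 5 genes were in LADs in siControl 4-cell embryos (background 24.7% of all protein-coding genes), 0 in siRif1 4-cell (24.0%), 1 in siControl 8-cell (26.3%) and 1 in siRif1 8-cell embryos (24.2%). The state of Obox2, LAD at the 8-cell stage in both groups and at the 4-cell stage in neither, was that of 2.87% of protein-coding genes, and the state of the other 4 genes, outside LADs throughout, that of 57.4%. From the 4-cell to the 8-cell stage, 1 of 5 genes went into a LAD in siControl (background 11.2%) and 1 of 5 in siRif1 embryos (8.83%). Between siControl and siRif1 embryos, 0 of 5 differed at the 4-cell stage (15.4%) and 0 of 5 at the 8-cell stage (16.7%). With 5 neighbouring genes on 1 locus, these counts describe the locus and are not 5 independent observations.

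The split between Obox2 and its neighbours came from the end of the last LAD on the centromere side of Obox1. This LAD reached into the array from the centromere side in every list but siRif1 8-cell, where it was a separate LAD that began inside the array. In siControl 4-cell embryos this LAD ran from 12400001 to 15200000 on chromosome 7 (2.8 Mb), and it ended 188.9 kb before Obox2. In siRif1 4-cell embryos it ran from 11500001 to 14900000 (3.4 Mb), so its end lay 488.9 kb before Obox2. At the 8-cell stage both lists ended a LAD at 15400000, just past Obox2 (15388851 to 15398545), whose last base is 1.5 kb from that border. The LAD that ended there ran from 11600001 (3.8 Mb) in siControl 8-cell embryos and from 14900001 (0.5 Mb) in siRif1 8-cell embryos. The distal edge of the last LAD before Obox1 thus had the order siRif1 4-cell, siControl 4-cell, then both 8-cell lists at the same grid position.

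**Figure D1:**
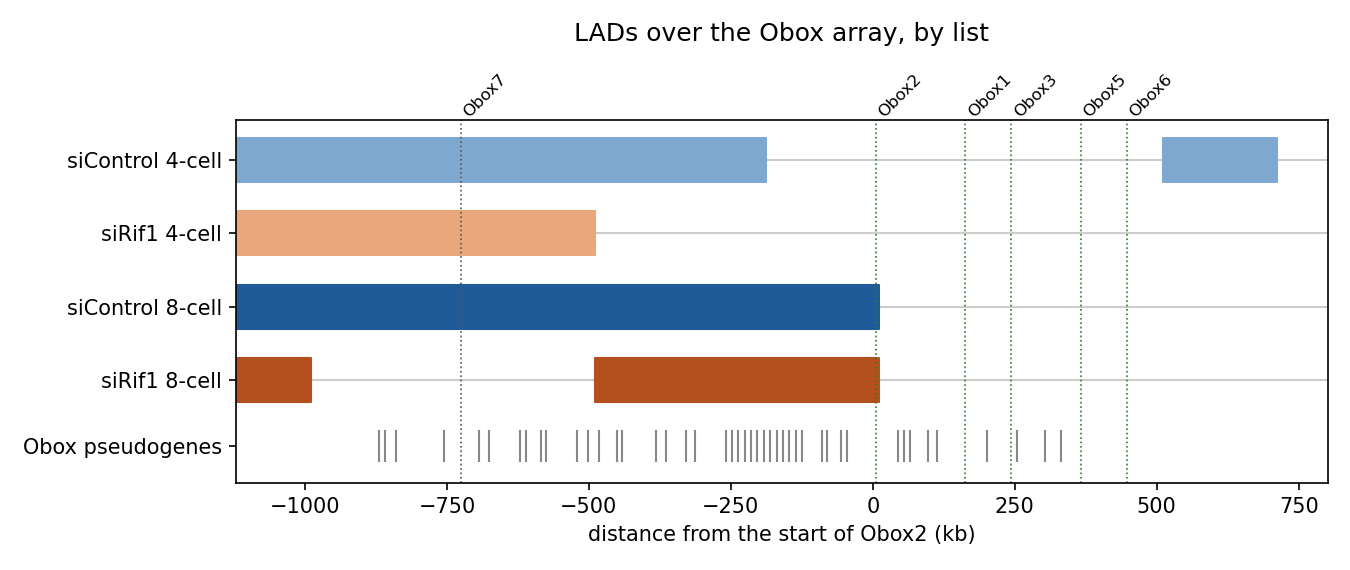
LADs (bars) of each list over the Obox array, against the distance from the start of Obox2 in kb; dotted lines are the midpoints of the protein-coding Obox genes and ticks at the bottom the Obox pseudogenes. The LAD edge lies before Obox2 in both 4-cell lists and just past it in both 8-cell lists, and Obox1, Obox3, Obox5 and Obox6 lie in no bar.

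Obox2, one of the maternal genes (9.7 kb long), had its midpoint 193.7 kb outside the nearest LAD border in siControl 4-cell and 493.7 kb outside in siRif1 4-cell embryos. In both 8-cell lists it was 6.3 kb inside the border. Its whole length was covered there, but the distance is well under the 100-kb grid step, so the call rests on where a single bin was assigned. With each LAD shortened by 100 kb at both ends, 0 of the 5 genes were in LADs in either 8-cell list. Within 10 kb of a border lay 1 of the 5 genes in siControl 8-cell (background 0.869%) and 1 in siRif1 8-cell embryos (0.918%), and 0 in siControl 4-cell (0.968%) and siRif1 4-cell embryos (0.755%).

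Obox1, the next gene along and also maternal (15547257 to 15556846), was nearest to a LAD at the 8-cell stage. Its midpoint lay 152.1 kb outside in both 8-cell lists, 347.9 kb outside in siControl 4-cell and 652.1 kb outside in siRif1 4-cell embryos. The 148.7 kb between Obox2 and Obox1 hold the 8-cell border.

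Obox5, the third maternal gene (15750370 to 15759274), showed another order. It was 145.2 kb from a border in siControl 4-cell embryos, 354.8 kb in both 8-cell lists and 854.8 kb in siRif1 4-cell embryos. The border nearest to it in siControl 4-cell embryos was the start of a different LAD on the telomere side, as it was for Obox1, Obox3 and Obox6.

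Of the embryonic genes, Obox3 (15625306 to 15639777, at 14.47 kb the longest of the 5) lay 267.5 kb outside LADs in siControl 4-cell, 732.5 kb in siRif1 4-cell and 232.5 kb in both 8-cell lists. Obox6 (15833250 to 15839679), the last gene of the array, lay 63.5 kb outside in siControl 4-cell, 936.5 kb in siRif1 4-cell and 436.5 kb in both 8-cell lists. All 5 genes were farthest from a border in siRif1 4-cell embryos. Within 500 kb of a border were 5 of 5 genes in siControl 4-cell (background 36.4%), 1 of 5 in siRif1 4-cell (35.1%), 5 of 5 in siControl 8-cell (39.5%) and 5 of 5 in siRif1 8-cell embryos (39.6%). The count in siControl 4-cell embryos rested on 1 small LAD: with LADs under 300 kb left out it was 3 of 5, and the other 3 counts did not change. The 1 gene in siRif1 4-cell embryos was Obox2 at 493.7 kb, under the 500-kb limit by less than the 100-kb grid step.

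**Figure D2:**
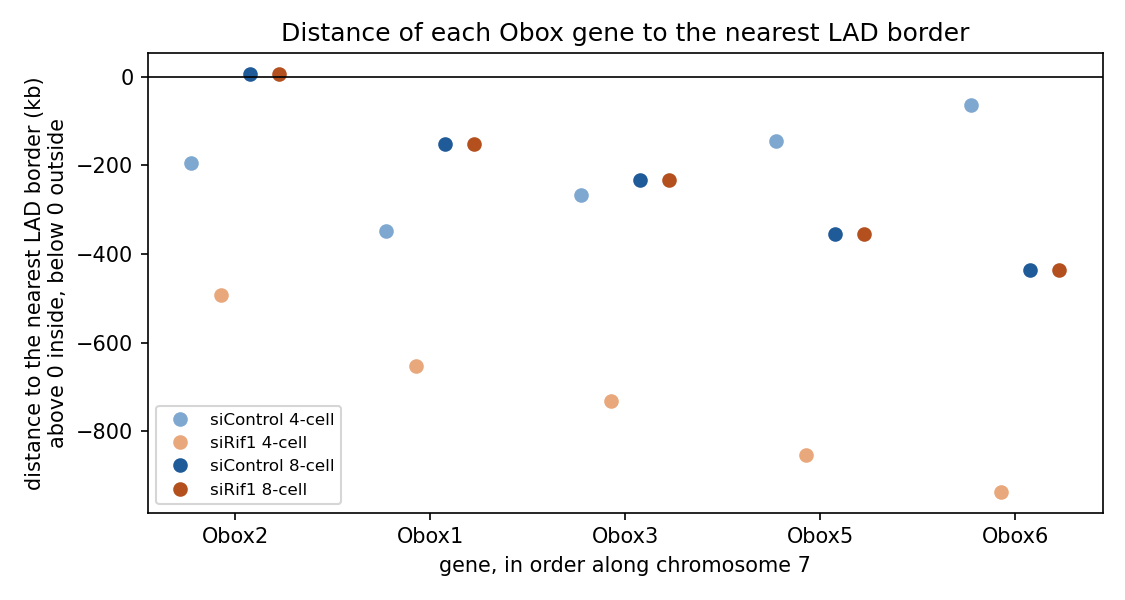
Distance in kb from the midpoint of each of the 5 genes to the nearest LAD border, 1 point per list, above 0 when the gene is inside a LAD and below 0 when outside. Obox2 is just above 0 in both 8-cell lists, and the siRif1 4-cell points, from -493.7 to -936.5 kb, are the lowest for every gene.

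The telomere-side LAD whose start was the border nearest to Obox1, Obox3, Obox5 and Obox6 measured 0.2 Mb (15900001 to 16100000). It was in siControl 4-cell embryos alone. It covered the end of Crxos, a homeobox gene of early embryos, and held the midpoints of Selenow, Nop53, Ehd2, Bicra and Zfp541, which were outside LADs in the other 3 lists. With LADs under 300 kb left out, the signed distance of Obox6 in this list became -636.5 kb and that of Obox5 -554.8 kb. Crx and Crxos themselves had midpoints outside LADs in all 4 lists, as had Obox1, Obox3, Obox5 and Obox6. The stretch free of LADs that held these 4 genes measured 0.7 Mb and 2.7 Mb in the siControl and siRif1 lists of the 4-cell stage, and 1.6 Mb and 1.7 Mb in those of the 8-cell stage. The median stretch between LADs over all autosomes was 1.8 Mb, 1.3 Mb, 1.1 Mb and 1.2 Mb in the same lists. In siControl 4-cell embryos, 85.2% of stretches were as long or longer, against 26.1% in siRif1 4-cell, 36% in siControl 8-cell and 33.7% in siRif1 8-cell embryos. The short stretch in siControl 4-cell embryos also rested on that LAD. With LADs under 300 kb left out, the stretch measured 4.2 Mb in that list, the longest of the 4, and 22.3% of its stretches were as long or longer; it kept its length in the other 3 lists.

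The wider Obox array ran from 14517971 to 15839679 (1.32 Mb) and held 51 annotated Obox entries, 6 of them protein-coding and 45 pseudogenes, of which 38 were named for Obox4 and 7 for Obox3. LADs covered 51.6% of the array in siControl 4-cell, 28.9% in siRif1 4-cell, 66.73% in siControl 8-cell and 37.83% in siRif1 8-cell embryos. From siControl to siRif1 embryos, coverage changed by -22.7 percentage points at the 4-cell and by -28.9 points at the 8-cell stage. It was higher at the 8-cell than at the 4-cell stage in both groups, by 15.13 points in siControl and 8.93 points in siRif1 embryos. On all of chromosome 7, coverage was 37%, 41.31%, 49.64% and 34.99% in the siControl and siRif1 lists of the 4-cell stage and then those of the 8-cell stage. There, siRif1 exceeded siControl embryos by 4.31 points at the 4-cell stage, unlike over the array.

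Obox7, the sixth protein-coding gene (14659708 to 14665996) and a maternal one, lies on the centromere side of Obox2 and had another state. It was in LADs in siControl 4-cell, siRif1 4-cell and siControl 8-cell embryos, at 537.1 kb, 237.1 kb and 737.1 kb from the nearest border. In siRif1 8-cell embryos it lay 237.1 kb outside, between LADs that ended at 14400000 and began at 14900001. This state was that of 3.29% of protein-coding genes. Sult2a8, Sult2a7 and Vmn1r90, on the centromere side of Obox7, had the same state.

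The 45 pseudogenes split into runs along the array. In siControl 4-cell embryos 26 of the 45 were in LADs (57.8%), in siRif1 4-cell 12 (26.7%), in siControl 8-cell 36 (80%) and in siRif1 8-cell embryos 24 (53.3%). Of all 9078 autosomal pseudogenes, 29.4%, 36.8%, 42.4% and 38.1% were in LADs in these lists. By position, the 12 pseudogenes from 14517971 to 14888162 were LAD in every list but siRif1 8-cell, and the next 14, up to 15197696, in every list but siRif1 4-cell. A further 10, from 15207265 to 15344241, were LAD in both 8-cell lists alone, as Obox2 was. The last 9, from 15431617 to 15720132, were LAD in none. The Obox4 pseudogenes numbered 21, 9, 30 and 21 of 38 in LADs in the siControl and siRif1 lists of the 4-cell stage and then those of the 8-cell stage, and the Obox3 pseudogenes 5, 3, 6 and 3 of 7. Since these entries lie side by side, their counts restate the position of the LAD edges.

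**Figure D3:**
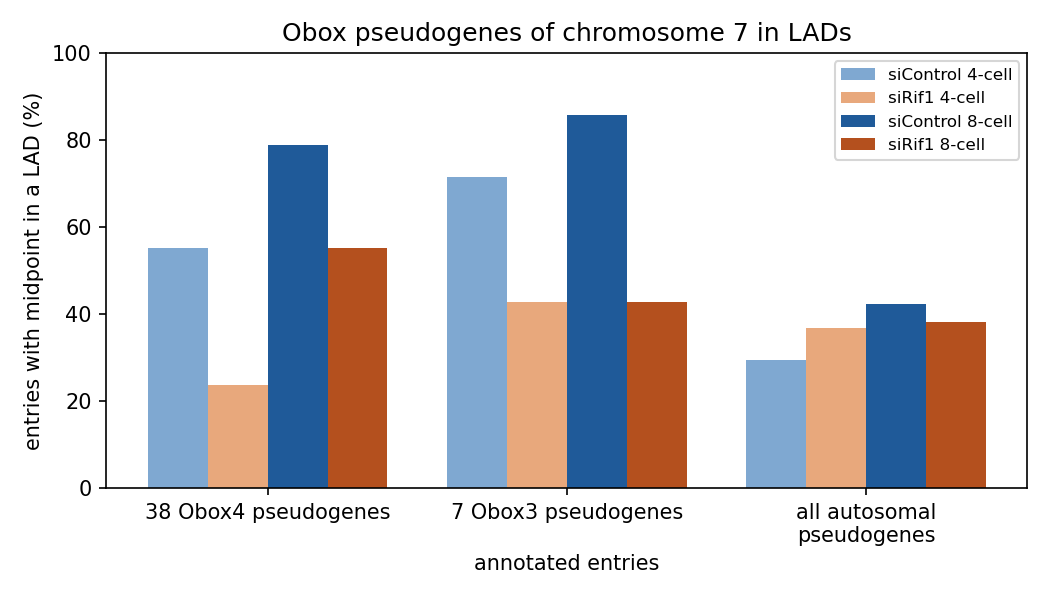
Percent of the 38 Obox4 and 7 Obox3 pseudogenes of chromosome 7, and of all 9078 autosomal pseudogenes, with a midpoint in a LAD of each list. The Obox pseudogenes are highest in siControl 8-cell embryos, and siRif1 is below siControl at both stages for both families.

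A map built from short reads depends on telling copies of a sequence apart, and parts of the promoters of the array resemble each other closely. RefSeq promoter windows on GRCm38.p6, with 250 bases before and 50 from the gene's start, were at hand for 4 of the 5 genes. The windows of Obox2 and Obox1, which stand on opposite sides of the 8-cell border, aligned over 203 bases with 0 differences, shifted by 97 bases. Shown are the 250 bases before each start, at chr7:15388601-15388850 for Obox2 and chr7:15547007-15547256 for Obox1, both on the plus strand, with the 153 bases they share in capitals.
Obox2: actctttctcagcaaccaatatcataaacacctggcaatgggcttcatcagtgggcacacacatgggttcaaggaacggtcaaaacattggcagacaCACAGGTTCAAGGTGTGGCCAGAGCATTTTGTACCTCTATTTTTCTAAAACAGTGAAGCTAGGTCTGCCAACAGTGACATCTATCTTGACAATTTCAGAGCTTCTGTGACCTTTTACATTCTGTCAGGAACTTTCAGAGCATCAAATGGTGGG
Obox1: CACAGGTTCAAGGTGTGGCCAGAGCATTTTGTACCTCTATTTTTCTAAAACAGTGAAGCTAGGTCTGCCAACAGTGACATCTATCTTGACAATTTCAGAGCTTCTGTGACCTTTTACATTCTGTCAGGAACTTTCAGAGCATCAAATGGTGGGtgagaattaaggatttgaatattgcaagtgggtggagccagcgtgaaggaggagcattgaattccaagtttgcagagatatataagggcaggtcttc

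Obox5 and Obox3 are shown because they carry the same start-proximal segment at another distance. By local alignment within the windows, Obox1 and Obox5 were identical at 273 of 283 aligned bases (96.5%). Obox1 and Obox3 were identical at 153 of 164 (93.3%), Obox3 and Obox5 at 162 of 175 (92.6%), and Obox2 and Obox3 at 56 of 62 (90.3%). The rest of each 300-base window did not enter these shares. The 250 bases before the start lie at chr7:15639778-15640027 on the minus strand for Obox3 and at chr7:15750120-15750369 on the plus strand for Obox5. Capitals mark the letters TATATAAG, which look like a TATA box.
Obox3: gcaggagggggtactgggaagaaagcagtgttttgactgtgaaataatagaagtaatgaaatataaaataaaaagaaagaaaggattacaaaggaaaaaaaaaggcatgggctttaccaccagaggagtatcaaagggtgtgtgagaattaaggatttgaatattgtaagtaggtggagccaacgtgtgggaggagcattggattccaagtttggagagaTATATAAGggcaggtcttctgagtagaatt
Obox5: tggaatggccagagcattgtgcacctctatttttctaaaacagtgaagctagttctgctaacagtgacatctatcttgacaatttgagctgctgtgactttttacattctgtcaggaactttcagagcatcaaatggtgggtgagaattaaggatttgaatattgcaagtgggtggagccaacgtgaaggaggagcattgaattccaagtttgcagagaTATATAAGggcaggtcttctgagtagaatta

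TATATAAG, a search string taken after these sequences were seen, begins 30 bases before the start of Obox3, 31 before that of Obox5 and 19 before that of Obox1. Searches covered only the 250 bases before the start in each window. On either strand TATATAAG was in 0.9% of 32851 promoter windows of RefSeq. It is not in the 250 bases of Obox2, whose annotated start, by the alignment with Obox1, is upstream of that segment. GATC, the site that Dam methylates and the same on both strands, was in 0 of the 4 windows, against 41.9% of all windows. The 4 windows share parts of their sequence, so this count is not 4 independent observations. GGATTA, a site bound by homeodomains of the Otx and Crx type, searched on both strands, was in the Obox3 window once and in 0 of the other 3, against 6.3% of all windows. How reads that fit several copies were treated is not given in the sources used here, and their part in the position of the LAD edge was not tested.

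Within 5 Mb on either side of the 5 genes (10388851 to 20839679), the flanks were unlike. The centromere-side 5 Mb were in LADs to 62% in siControl 4-cell, 78% in siRif1 4-cell, 94% in siControl 8-cell and 61.78% in siRif1 8-cell embryos. The telomere-side 5 Mb were in LADs to 10%, 22%, 38% and 20%. In all 4 lists the 5 genes thus stood between a side covered more than the autosomes and a side covered less. The telomere side came closest to the autosomes in siControl 8-cell embryos (38% against 44.73%). Over all autosomes, coverage was 32.94%, 43.54%, 44.73% and 42.92%.

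**Figure D4:**
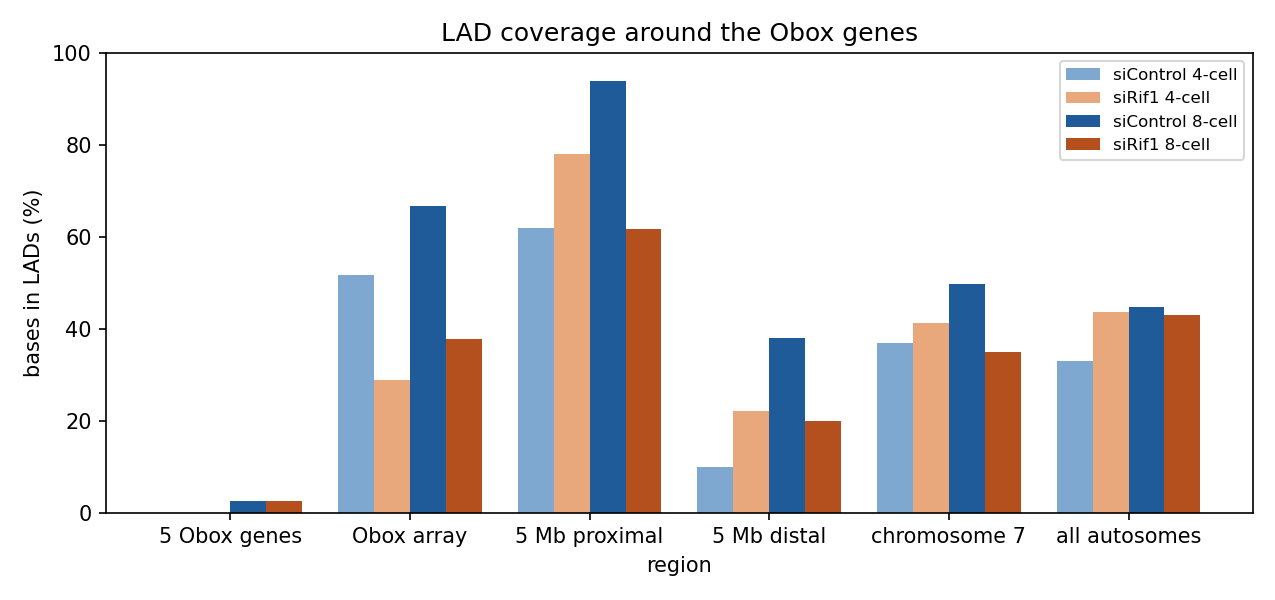
Percent of bases in LADs in each list, for the span of the 5 genes, the Obox array, the 5 Mb on the centromere side (proximal) and the telomere side (distal), chromosome 7 and all autosomes. The span of the 5 genes reaches 2.47% in both 8-cell lists and is 0 in both 4-cell lists, and the proximal bars exceed the distal bars in every list.

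In the whole window, siRif1 embryos had 13.39 points more coverage than siControl embryos at the 4-cell stage (47.84% against 34.45%). At the 8-cell stage the difference was -24.03 points (39.23% against 63.26%). Control embryos had 28.81 points more at the 8-cell than at the 4-cell stage, whereas the difference between the stages was -8.61 points in siRif1 embryos. In a window of 2 Mb, the difference at the 4-cell stage became -5.85 points and that between the stages in siRif1 embryos 11.23 points, so these signs depend on how far the window reaches. Chromosome 7 as a whole moved the same ways as the window of 5 Mb, with 4.31 and -14.65 points for siRif1 against siControl embryos at the 4-cell and 8-cell stages, and 12.64 and -6.32 points from the 4-cell to the 8-cell stage in siControl and siRif1 embryos.

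The window held 8 LAD borders in siControl 4-cell, 6 in siRif1 4-cell, 7 in siControl 8-cell and 8 in siRif1 8-cell embryos. A border counted as shared when the other list had one of the same kind (start or end) within 100 kb. At the 4-cell stage 1 of 8 siControl borders (12.5%) and 1 of 6 siRif1 borders (16.7%) were shared, the LAD end at 11000000 near Zscan4c, a 2-cell stage gene. At the 8-cell stage 2 of 7 (28.6%) and 2 of 8 (25%) were shared, and the end next to Obox2 was the sole one at the same base. Between the stages, siControl embryos shared 0 of 8 and 0 of 7 borders, and siRif1 embryos 1 of 6 (16.7%) and 1 of 8 (12.5%). These small counts depended on the tolerance. Within 300 kb, 3 siControl borders of the 4-cell stage had a partner in the siRif1 list, and between the stages 2 did in siControl and 2 in siRif1 embryos. At the same base, 1 was shared at the 8-cell stage and 0 between the stages in siRif1 embryos, where LADs of at least 300 kb also gave 0. Obox2 was the protein-coding gene nearest to 3 of the borders within 1 Mb, the end in siControl 4-cell (188.9 kb away) and the ends in both 8-cell lists (1.5 kb). Obox7 was nearest to the end in siRif1 4-cell and the start in siRif1 8-cell embryos, both 234 kb away, and Sult2a8 (10.7 kb) to the end at 14400000 in siRif1 8-cell embryos. Crxos and Napa overlapped the start and the end of the small siControl 4-cell LAD.

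**Figure D5:**
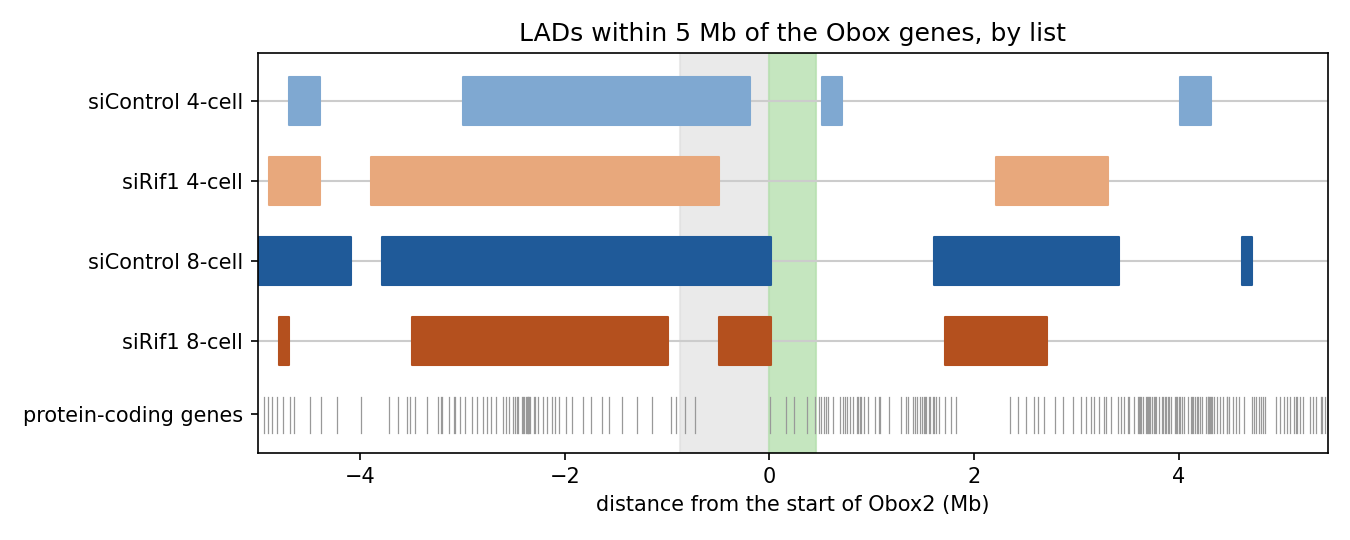
LADs (bars) of each list within 5 Mb of the 5 genes, against the distance from the start of Obox2 in Mb; the green band is the span of the 5 genes, the grey band the rest of the Obox array, and ticks are midpoints of protein-coding genes. In every list the last LAD to the left of the 5 genes ends before or just inside the green band.

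Of the 217 protein-coding genes in this window, 103 were outside LADs in all 4 lists and 40 inside in all 4. Of all 20144 protein-coding genes, 11570 (57.4%) were outside in all lists and 1946 inside in all. In single lists 69 (31.8%) were in LADs in siControl 4-cell, 79 (36.4%) in siRif1 4-cell, 92 (42.4%) in siControl 8-cell and 60 (27.6%) in siRif1 8-cell embryos. The shares of all protein-coding genes were 24.7%, 24.0%, 26.3% and 24.2%. Of the 212 that are not among the 5 Obox genes, 99 shared the state of Obox1, Obox3, Obox5 and Obox6 in 4 of 4 lists. The nearest were Crx, Crxos, Napa, Kptn and Slc8a2, at 33.3 kb, 53.6 kb, 268.4 kb, 284 kb and 304.6 kb from the span. The state of Obox2 in 4 of 4 lists was shared by 3 of the 212, beside 2.87% of all protein-coding genes. These were the pregnancy-specific glycoprotein genes Psg16 and Psg29 and the adhesion gene Ceacam3, 1264.1 kb to 1369.9 kb away in a different LAD.

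Other clustered families of the window differed in where they stood. The 8 Sult2a sulfotransferase genes, at the centromere side of the array, were in LADs in 8, 8, 8 and 6 cases in the siControl and siRif1 lists of the 4-cell stage and then those of the 8-cell stage, and Sult2a7 and Sult2a8 were the exceptions. Of 44 Vmn1r pheromone receptor genes, 7, 23, 24 and 15 were in LADs in the same order. All of these stood on the centromere side, and the 20 Vmn1r genes of the telomere side were outside LADs in every list. Of 4 Zscan4 genes, which mark the 2-cell stage, 1, 1, 3 and 0 were in LADs. All 9 Zfp zinc finger genes were in LADs in siControl 4-cell embryos and 7 in each other list. On the telomere side, 0, 5, 6 and 6 of 11 Ceacam genes and 0, 8, 12 and 2 of 13 Psg genes were in LADs. In the same order, 24.7%, 24.0%, 26.3% and 24.2% of all protein-coding genes were in LADs.

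By 100-kb bins, the window held 7 of 104 bins (6.7%) in the state of Obox2, against 3.8% on chromosome 7 and 4.8% over the autosomes. Bins outside LADs in all lists, as at the other 4 genes, made up 30.8% of the window, 35.9% of chromosome 7 and 34.7% of the autosomes. Bins in LADs in every list but siRif1 8-cell, as at Obox7, made up 7.7%, 6.3% and 4.9%.

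Related genes gave a setting for these states, most of them elsewhere, though Crx and Crxos beside the array were counted among them. Of 34 other homeobox genes of the paired and paired-like class, 8, 8, 9 and 8 were in LADs in the siControl and siRif1 lists of the 4-cell stage and then those of the 8-cell stage, shares of 23.5%, 23.5%, 26.5% and 23.5% that were near those of all protein-coding genes. Of these, 19 were outside LADs in all lists, among them Otx2, Gsc and Pitx1, and 2 inside in all, the oocyte gene Nobox and the mesenchymal gene Prrx1. Duxf3, the Dux gene that acts at genome activation, was LAD in siRif1 4-cell embryos alone.

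A list drawn up by name for zygotic genome activation and the 2-cell stage, with Btg4, Zar1 and Dppa3 in it, gave 32 placed genes. Their expression was not measured here. Of the 32, 10 were in LADs in siControl 4-cell (31.2%), 11 in siRif1 4-cell (34.4%), 14 in siControl 8-cell (43.8%) and 10 in siRif1 8-cell embryos (31.2%). Over all protein-coding genes these shares were 24.7%, 24.0%, 26.3% and 24.2%. Most of those in LADs in siControl 8-cell embryos lie in clusters, namely Usp17l and Zscan4 genes and the neighbours Dppa2 and Dppa4. The counts are therefore not 32 independent observations. Zfp352, a 2-cell stage gene, was the sole one of the 32 with the state of Obox2, which 2.87% of protein-coding genes had. Outside LADs in all lists, as Obox1, Obox3, Obox5 and Obox6 were, stood 9 of the 32 genes, among them Klf17, Klf5, Tfap2c and Dppa3, beside 57.4% of protein-coding genes. Outside chromosome 7, the 2 Obox pseudogenes of chromosome 17 were each in LADs in a single list, Obox3-ps8 in siControl 8-cell and Obox6-ps1 in siRif1 8-cell embryos.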

How the data were processed

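The authors deposited 1 list of LADs per group, made from all 3 replicates, per the series' design text. Each list gives starts and ends of LADs on a 100-kb grid of GRCm38, and its deposited score is 0 in every line and was not used. Trimmomatic, Bowtie2, SAMtools and Picard were used per the submitters' processing notes, with no versions. Not given in the sources used here are the LAD caller and whether Dam without lamin was used as a control.

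Gene positions came from RefSeq's table for GRCm38.p6, leaving out 333 of 47042 autosomal entries with scaffold coordinates. Genes were placed by their midpoints. Coverage is the percent of bases in LADs. The background is every protein-coding gene between the first and last LAD of a chromosome in any list. Promoter windows were aligned locally in Biopython 1.88 (Python 3.11.15). Interval code was tested on simulated data.

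Named were the 5 genes, other Obox entries, 2 flanking genes on each side, genes at borders within 1 Mb, the 5 nearest genes of like state, window families and 2 gene lists. Of 37 paired-class genes 34 and of 34 genes in the activation list 32 could be placed. No Pramel gene lay in the window. Selenow, Nop53, Ehd2, Bicra and Zfp541 were named after their states were seen. Members and lists were chosen with earlier results of these data known. The alternatives tried were other LAD minimums, bridged gaps, shifted LAD ends, other ways to place a gene, other windows, other tolerances for a shared border and the span of all Obox entries. The LAD minimum and bridged gaps were applied to the stretch free of LADs and to the count of genes within 500 kb of a border after seeing the data.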

Additional observations from a re-analysis of the deposited data

Results flagged for a closer look

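The siRif1 minus siControl difference in LAD coverage had opposite signs at the 2 stages around the Obox genes, and the difference between stages was not tested, since each group is 1 pooled list. Within 5 Mb of the genes it was 13.39 percentage points at the 4-cell and -24.03 at the 8-cell stage. On the centromere side it was 16 and -32.22 points, and on the telomere side 12 and -18 points. Seen from the stages, the 8-cell minus 4-cell difference was 28.81 points in siControl and -8.61 in siRif1 embryos within 5 Mb, 32 and -16.22 on the centromere side and 28 and -2 on the telomere side. Over the Obox array itself both differences kept 1 sign, and in a window of 2 Mb the siRif1 minus siControl difference was below 0 at both stages, -5.85 and -13.48 points. Over all autosomes it was 10.6 and -1.81 points and over chromosome 7 4.31 and -14.65 points, so opposite signs at the stages were not particular to the Obox surroundings.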

How the results depend on the processing

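No paired analysis was possible because each deposited list pools the 3 replicates of its group, so no replicate could be left out either. Of 196 values recomputed under the alternatives, 162 stayed within their limits (1.5 times for a count, the 95% exact binomial interval over bins for a coverage, 100 kb for a distance), 32 moved and 2 reversed. The LAD state of Obox2 rests on 1 bin: with LADs shortened by 100 kb at both ends 0 of the 5 genes were in LADs in both 8-cell lists, in place of 1. With LADs extended by 100 kb, 1 gene was in a LAD in siControl 4-cell embryos, Obox6, which the telomere-side LAD then reached. Every way of placing a gene gave the same counts, as did LADs of at least 300 kb. Bridging gaps of up to 200 kb changed no value, because no gap between LADs in the window of 5 Mb was that short. Values under this setting could not move, yet they count among the 162. Over the span of all Obox entries coverage was 51.6% and 28.9% in the siControl and siRif1 lists of the 4-cell stage, in place of 0, and 66.73% and 37.83% in those of the 8-cell stage, in place of 2.47%. Of these changes only that to 66.73% counted as moved, because the binomial interval over the few bins of the 5-gene span is wide. The tally therefore says little about coverage of that span. In a window of 2 Mb, coverage was 45.19% in siControl 4-cell and 50.57% in siRif1 8-cell embryos, with 3 and 2 borders in the siControl and siRif1 lists of the 4-cell stage and 2 and 4 in those of the 8-cell stage. There the siRif1 minus siControl difference at the 4-cell stage reversed to -5.85 points, and the 8-cell minus 4-cell difference in siRif1 embryos to 11.23 points; the cause was not tested. The siRif1 minus siControl difference at the 8-cell stage moved from -24.03 to -13.48 and the 8-cell minus 4-cell difference in siControl embryos from 28.81 to 18.86 points. In a window of 10 Mb, coverage was 21.52%, 26.46%, 47.49% and 24.5% in that order of lists, with 14, 17 and 13 borders in siControl 4-cell, siControl 8-cell and siRif1 8-cell embryos. There the siRif1 minus siControl difference at the 4-cell stage moved from 13.39 to 4.94 and the 8-cell minus 4-cell difference in siRif1 embryos from -8.61 to -1.96 points. Without LADs under 300 kb, the small siControl 4-cell LAD was lost and Obox3, Obox5 and Obox6 had signed distances of -432.5, -554.8 and -636.5 kb in place of -267.5, -145.2 and -63.5 kb, negative meaning outside. Depth cannot be read from the lists.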
